A study of Mus musculus with 4 samples.

Results

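Solute carriers (Slc genes) are the largest class of membrane transporters, and they move sugars, amino acids, ions, metals, lipids and nucleotide derivatives across the plasma membrane and the membranes of organelles. The family of mitochondrial carriers, Slc25, sits mostly in the inner mitochondrial membrane, where it exchanges ADP for ATP and brings in phosphate, acylcarnitines and the metabolites of the malate-aspartate shuttle. The heart depends on this traffic for oxidative ATP production, and on plasma membrane carriers for glucose, lactate and creatine and for the export of calcium and acid. Members were the genes whose only platform symbol begins with Slc and a digit, and each was represented by its probe set of highest mean log2 intensity across the 4 arrays. There were 262 such genes among 12393 genes with a probe set of their own, from 49 Slc families. A gene counted as measured when at least 1 array lay at or above a floor of 64 intensity units, which held for 67 members, 19 of the 33 Slc25 genes and 48 of the 229 others. Of all genes on the array, 41.6% were measured, against 57.6% of Slc25 genes and 21.0% of the other Slc genes.

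Gene expression was measured on 4 single-channel arrays, 1 per group, each carrying RNA pooled from several mice. The groups were IL-18 null mice on a C57BL/6 background with transaortic constriction (banding, a narrowing of the aorta that puts a pressure load on the left ventricle) for 1 week (left ventricle, 6 mice), sham-operated IL-18 null mice (left ventricle, 5 mice), banded wild-type mice, and sham-operated wild-type mice (cardiac muscle). IL-18 is interleukin-18, an inflammatory cytokine, and the null mice lack its gene. For the wild-type pools the labels give no strain, banding time or number of mice beyond the 5 to 6 per group of the series design, the banded wild-type label names no tissue, and no label gives age or sex. With 1 array per group there is no replicate, so no difference has an error or a test. Differences are on the log2 scale with values under 64 set to 64, 2-fold being a difference of 1. "At least" marks a bound, where 1 of the arrays lay under the floor.

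All 12 cardiomyocyte markers on the array lay at or above the floor on every array. The deleted gene, Il18, had intensities of 8.4 in IL-18 null banded, 8.2 in IL-18 null sham, 7.4 in wild-type banded and 9.1 in wild-type sham, all under the floor, so it gave no check of the genotype labels. The arrays differed in how evenly transcripts were covered. The 3′ probe set of the Gapdh control exceeded its middle probe set by 1.66 (log2) in IL-18 null banded, by 2.73 in IL-18 null sham and by 4.61 in wild-type sham, and by -0.16 in wild-type banded. The wild-type arrays thus lay at the opposite ends of this measure. By Gapdh every comparison below, that of the IL-18 null arrays included, is between arrays that differ in it. For the Actb control it was 4.57 in IL-18 null banded and 4.69 in IL-18 null sham. It was 2.01 in wild-type banded and 4.88 in wild-type sham, so by Actb wild-type banded alone stood apart. For the dap control it was 2.81 (banded) and 2.69 (sham) in IL-18 null, and 0.30 (banded) and 4.73 (sham) in wild type. The part of this uneven coverage in the results was not tested.

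The member nearest above the floor was Slc25a17, a peroxisomal cofactor carrier, with 66.2 on its highest array (IL-18 null banded), and the nearest below was Slc22a17, with 63.9. The 195 members under the floor on every array included Slc27a1, a fatty acid transport protein (54.2 on its highest array), and the glucose carrier gene Slc2a3 (26.5). The lactate exporter gene Slc16a3 reached 13.4, and Slc7a5, the light subunit of a large neutral amino acid carrier, 15.2. Slc6a6, the taurine carrier, reached 12.1, the nucleoside carrier gene Slc29a1 19.3, and Slc4a1, the red cell anion exchanger, 18.3. Slc25a10, the dicarboxylate carrier, reached 6.3 and the ATP-magnesium carrier gene Slc25a25 23.9. These values bear on the probe sets and do not show that a gene was silent. Slc27a6, Slc25a1 and Slc25a12 were not analysed here.

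The promoters of 4 members are shown, all those past 2-fold with banding in IL-18 null. Slc20a1 and Slc39a1 were the members at least 2-fold higher with banding in IL-18 null, and Slc25a13 and Slc12a7 were the members past 2-fold in opposite directions between genotypes. Each window runs from 250 bases before to 50 after a transcription start listed by RefSeq (GRCm38.p6, the most upstream of the starts in the promoter table used), and is written 5′ to 3′ on the gene's strand. Capitals mark an E-box (CACGTG), an AP-1 motif (TGANTCA) or a GC-box (GGGCGG) on either strand.
Slc20a1, chr2:129198523-129198822, plus strand: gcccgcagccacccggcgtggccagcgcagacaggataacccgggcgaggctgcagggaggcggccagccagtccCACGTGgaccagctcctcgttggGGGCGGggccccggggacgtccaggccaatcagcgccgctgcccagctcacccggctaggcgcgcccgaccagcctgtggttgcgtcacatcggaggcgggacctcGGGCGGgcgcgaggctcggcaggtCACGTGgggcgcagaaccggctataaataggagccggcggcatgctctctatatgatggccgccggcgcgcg
Slc39a1, chr3:90247942-90248241, plus strand: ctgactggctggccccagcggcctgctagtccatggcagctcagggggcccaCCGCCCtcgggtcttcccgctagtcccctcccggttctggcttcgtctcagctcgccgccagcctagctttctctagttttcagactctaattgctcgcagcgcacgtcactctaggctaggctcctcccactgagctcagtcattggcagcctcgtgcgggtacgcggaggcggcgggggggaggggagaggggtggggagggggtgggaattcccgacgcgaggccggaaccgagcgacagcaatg
Slc25a13, chr6:6217124-6217423, minus strand: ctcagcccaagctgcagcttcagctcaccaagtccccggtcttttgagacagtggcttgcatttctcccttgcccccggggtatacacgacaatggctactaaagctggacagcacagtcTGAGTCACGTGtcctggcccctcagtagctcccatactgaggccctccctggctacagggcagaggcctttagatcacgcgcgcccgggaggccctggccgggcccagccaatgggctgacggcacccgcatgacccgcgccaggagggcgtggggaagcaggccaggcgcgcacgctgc
Slc12a7, chr13:73763410-73763709, plus strand: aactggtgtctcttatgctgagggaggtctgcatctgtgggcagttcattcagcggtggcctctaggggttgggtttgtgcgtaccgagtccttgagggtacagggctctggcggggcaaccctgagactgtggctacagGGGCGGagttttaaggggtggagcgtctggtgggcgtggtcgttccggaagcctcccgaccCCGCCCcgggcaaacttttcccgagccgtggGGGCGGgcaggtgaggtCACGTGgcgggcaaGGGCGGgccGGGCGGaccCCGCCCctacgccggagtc
The Slc12a7 window lies inside the annotated gene, which begins upstream of it at position 73733052. The Slc20a1 window held 2 E-boxes and 2 GC-boxes, the Slc39a1 window 1 GC-box, and the Slc12a7 window 1 E-box and 6 GC-boxes. In the Slc25a13 window 1 AP-1 motif overlapped 1 E-box. The annotated Slc25a13 gene begins inside its window, at position 6217304 beside these motifs, upstream of the start used. The motifs were found in 7.24% (E-box), 7.92% (AP-1) and 35.9% (GC-box) of 27025 promoters, 1 per gene. Among the 50 measured members with a listed promoter, 11 held an E-box, 3 an AP-1 motif and 43 a GC-box. These matches describe the letters of the windows and say nothing of binding.

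The carriers that serve ATP export stayed within 2-fold across the arrays on each measured probe set of Slc25a4, Slc25a5 and Slc25a3. Slc25a4, the adenine nucleotide translocase of heart and skeletal muscle, had 43059.9 in IL-18 null banded, 43335.1 in IL-18 null sham, 43811.1 in wild-type banded and 34363.8 in wild-type sham. The wild-type banded value was the highest of the whole table, and the 3 measured probe sets of Slc25a4 differed with banding by -0.01 to 0.04 in IL-18 null, against -0.80 to 0.35 in wild type. Whether values so near the top of the scale could still show a difference was not tested. Slc25a5, the translocase of most other cells, had 5905.0 in IL-18 null banded, 5672.2 in IL-18 null sham, 5979.6 in wild-type banded and 5388.6 in wild-type sham. The highest and lowest of these lay 0.15 apart, the least of any of the 16 Slc25 members at or above the floor on all 4 arrays. The 8 measured probe sets of Slc25a5 differed with banding by -0.03 to 0.87 in IL-18 null, against -0.26 to 0.16 in wild type. The phosphate carrier gene Slc25a3 had 13364.2 in IL-18 null banded, 16846.3 in IL-18 null sham, 16183.0 in wild-type banded and 16628.6 in wild-type sham. IL-18 null banded was the lowest for Slc25a3, by 0.33 against its sham array and by 0.28 against wild-type banded.

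Both measured carriers of the malate-aspartate shuttle, which passes reducing equivalents from the cytosol into mitochondria, spread widely instead. Slc25a11, the oxoglutarate-malate carrier, had 2340.3 in IL-18 null banded, 3413.8 in IL-18 null sham, 4778.2 in wild-type banded and 44.0 in wild-type sham. Wild-type sham stood alone under the floor, so the banding difference was -0.54 in IL-18 null, against at least 6.22 (74.7-fold) in wild type. Slc25a13, the aspartate-glutamate carrier known as citrin, had 217.8 in IL-18 null banded, 661.6 in IL-18 null sham, 1176.5 in wild-type banded and 126.6 in wild-type sham. Banding gave -1.60 in IL-18 null (3.04-fold lower), against 3.22 in wild type (9.29-fold higher). Slc25a11 and Slc25a13 had a single probe set each. Quantile normalization gave Slc25a13 values of -1.75 in IL-18 null, against 2.79 in wild type, and cyclic loess -1.70, against 3.41.

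**Figure D1:**
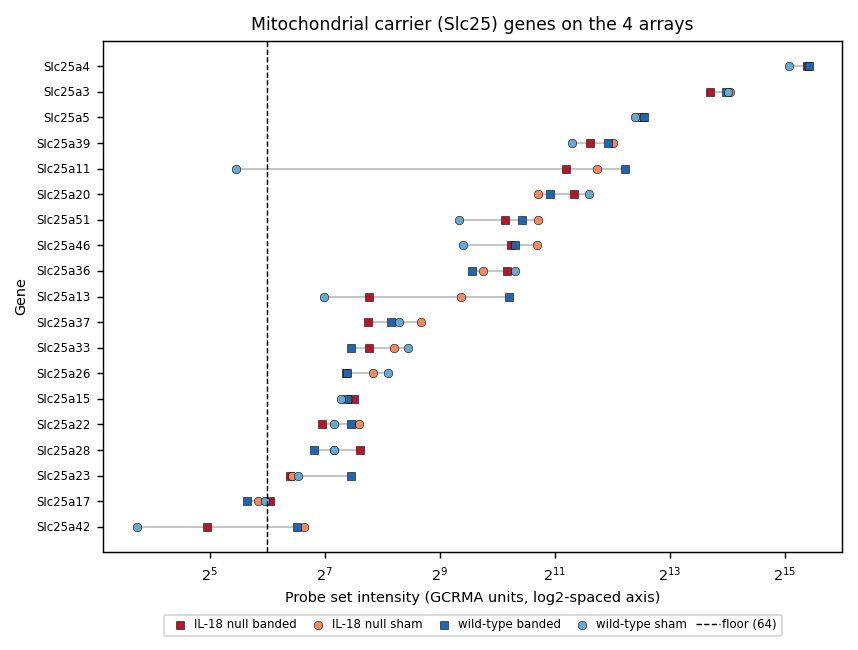
Probe set intensity (log2-spaced axis) of the 19 measured Slc25 genes, 1 row per gene, with 1 point per array and the floor of 64 as a dashed line. Slc25a4, Slc25a3 and Slc25a5 show their 4 points close together, while Slc25a11 and Slc25a13 spread widely, with wild-type sham lowest and wild-type banded highest.

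Carriers of fatty acid and cofactor metabolism had smaller differences. Slc25a20, the carnitine-acylcarnitine carrier that brings fatty acids in for beta-oxidation, had 2567.3 in IL-18 null banded, 1666.7 in IL-18 null sham, 1921.5 in wild-type banded and 3094.2 in wild-type sham. Banding gave 0.62 in IL-18 null, against -0.69 in wild type, but the other measured probe set gave -0.31, against 1.81, so no direction can be given. Slc25a42, the mitochondrial coenzyme A carrier, had 31.0 in IL-18 null banded, 99.4 in IL-18 null sham, 91.5 in wild-type banded and 13.2 in wild-type sham. IL-18 null sham and wild-type banded lay above the floor, so banding gave at least 0.64 lower in IL-18 null, against at least 0.52 higher in wild type. Slc25a51, the NAD carrier, had 1125.0 in IL-18 null banded, 1677.1 in IL-18 null sham, 1376.5 in wild-type banded and 645.3 in wild-type sham. Banding gave -0.58 in IL-18 null, against 1.09 in wild type. The other measured probe set of Slc25a51 gave 0.21 in IL-18 null, against 0.27 in wild type. Slc25a46, an outer membrane protein that takes part in mitochondrial fusion and fission, had 677.8 in wild-type sham and 1201.5 to 1647.2 on the other arrays. Its probe sets disagreed on banding in wild type, at 0.90 and -0.82.

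The iron and pyrimidine nucleotide carriers of mitochondria stayed within 2-fold in all 4 comparisons. Slc25a37 (mitoferrin-1), which brings iron in for heme synthesis, had 214.0 in IL-18 null banded, 409.6 in IL-18 null sham, 284.4 in wild-type banded and 314.5 in wild-type sham. IL-18 null banded was lowest, by 0.94 against its sham array. Slc25a28 (mitoferrin-2) had 194.3 in IL-18 null banded, 143.5 in IL-18 null sham, 111.6 in wild-type banded and 142.3 in wild-type sham, with IL-18 null banded highest. Slc25a33, a pyrimidine nucleotide carrier, had 217.9 in IL-18 null banded, 293.1 in IL-18 null sham, 174.7 in wild-type banded and 348.1 in wild-type sham. Both banded arrays were lower than their sham arrays, by 0.43 in IL-18 null and by 0.99 in wild type. Slc25a23, a calcium-sensitive ATP-magnesium carrier, differed by -1.07 between the banded arrays, with 83.6 in IL-18 null and 175.5 in wild type. The other measured Slc25 genes, Slc25a15, Slc25a17, Slc25a22, Slc25a26, Slc25a36 and Slc25a39, had differences of -0.75 to 0.71 on their representing probe sets, and none passed 2-fold.

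Of the Slc25 genes with a value in a comparison, 3 of 18 were higher by 2-fold or more in banded than in sham wild type and 0 lower, where 21.7% of all genes tested were higher and 12.8% lower. The median was 0.22, against -0.08 over all genes, and it turned to -0.16 under quantile normalization, with 2 higher and 2 lower. In IL-18 null, 0 of 19 were higher and 1 was lower (all genes: 6.98% and 2.53%), but 13 of the 19 lay below 0 and 6 above it. Of all 4827 genes with a value, 1855 lay below 0 and 2964 above it. The Slc25 median was -0.40, where that of all genes was 0.08. Under quantile normalization the Slc25 median was -0.48, under cyclic loess -0.51, with the mean of all probe sets -0.23, and without a floor, over all 33 Slc25 genes, -0.003. Without shared probe sets it was -0.18. Among the members below 0 but within 2-fold were Slc25a22 (-0.65), Slc25a51 (-0.58), Slc25a26 (-0.48) and Slc25a39 (-0.40), and Slc25a13 was the single one past 2-fold. The other measured probe set of Slc25a51 gave 0.21, and those of Slc25a39 gave at least 0.26 and -0.21, so the sign of both depended on the probe set. The 12 cardiomyocyte markers summed to 265184 in IL-18 null banded and 272162 in IL-18 null sham, with 0 past 2-fold, and to 290018 in wild-type banded and 214306 in wild-type sham, with 2 higher. The fibroblast markers summed to 38922 in IL-18 null banded and 14080.5 in IL-18 null sham, and to 26434.3 in wild-type banded and 10827.3 in wild-type sham. Their part in the Slc25 values was not tested. In pooled tissue, fewer cells of a type and less RNA per cell cannot be told apart.

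Fuel carriers of the plasma membrane were led by the glucose transporters. Slc2a4, the insulin-responsive glucose transporter GLUT4, had 296.9 in IL-18 null banded, 573.8 in IL-18 null sham, 2261.4 in wild-type banded and 254.1 in wild-type sham. The wild-type banded value stood far above the others, so the banding difference was -0.95 in IL-18 null, against 3.15 (8.90-fold) in wild type, and that between banded arrays was -2.93. Its other probe set had 316.9 in wild-type banded and 2.6 to 2.8 elsewhere. Slc2a1, the basal glucose transporter GLUT1, ran the other way. It had 428.6 in IL-18 null banded, 216.1 in IL-18 null sham, 157.7 in wild-type banded and 358.7 in wild-type sham, so wild-type banded was its lowest array. Banding gave 0.99 in IL-18 null, against -1.19 in wild type, and the banded arrays differed by 1.44, higher in IL-18 null. Its other measured probe set had the same signs, at 0.69, -0.65 and 0.88.

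The other fuel carriers varied less. Slc16a1, the monocarboxylate transporter MCT1 for lactate and pyruvate, had 5909.5 in IL-18 null banded, 6914.6 in IL-18 null sham, 5965.2 in wild-type banded and 7179.7 in wild-type sham. Both banded arrays were slightly lower than their shams, by 0.23 in IL-18 null and by 0.27 in wild type. Bsg, the chaperone that takes MCT1 to the cell surface, had 5442.8 in IL-18 null banded, 8477.6 in IL-18 null sham, 14590.0 in wild-type banded and 95.4 in wild-type sham. Slc5a2, a sodium-glucose cotransporter known mainly from kidney, had 412.8 in IL-18 null banded, 392.5 in IL-18 null sham, 362.3 in wild-type banded and 628.3 in wild-type sham. Its other probe set lay under the floor on every array, at 14.9 to 18.7. Slc22a5, the carnitine transporter OCTN2, had 264.9 in IL-18 null banded, 403.4 in IL-18 null sham, 262.9 in wild-type banded and 335.6 in wild-type sham. The banded arrays were the lower ones in both genotypes, by 0.61 in IL-18 null and by 0.35 in wild type.

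Ion carriers held several of the widest spreads. Slc12a7, the potassium-chloride cotransporter KCC4, had 122.6 in IL-18 null banded, 256.9 in IL-18 null sham, 1420.0 in wild-type banded and 32 in wild-type sham. Banding gave -1.07 in IL-18 null, against at least 4.47 in wild type, and the banded arrays differed by -3.53. Averaged with its probe set under the floor, the wild-type value was 0.88 and IL-18 null had none. Slc4a3, the chloride-bicarbonate exchanger AE3 of heart and brain, had 203.5 in IL-18 null banded, 218.8 in IL-18 null sham, 600.4 in wild-type banded and 8.8 in wild-type sham. Its banding difference was -0.10 in IL-18 null, against at least 3.23 in wild type. Slc20a2, a sodium-phosphate cotransporter, had 549.6 in IL-18 null banded, 870.8 in IL-18 null sham, 1360.9 in wild-type banded and 217.7 in wild-type sham, and its wild-type banding difference of 2.64 was 0.22 when averaged with a probe set under the floor. Slc12a7, Slc4a3 and Slc20a2 thus shared the order of Slc2a4 at its ends, with wild-type banded highest and wild-type sham lowest. Slc12a4, the potassium-chloride cotransporter KCC1, was higher by 1.38 in wild-type banded than in wild-type sham (253.1 and 97.3).

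Slc8a1, the sodium-calcium exchanger that removes calcium from the cardiomyocyte after each beat, had 82.8 in IL-18 null banded, 98.2 in IL-18 null sham, 55.0 in wild-type banded and 147.8 in wild-type sham. The banded array was lower by 0.25 in IL-18 null, against at least 1.21 in wild type, and its other probe sets lay under the floor. Slc12a2, the sodium-potassium-chloride cotransporter NKCC1, had 225.0 to 397.9 and no difference past 2-fold. Slc9a3r2, which begins with the same letters but encodes a scaffold protein and no carrier, had 443.5 in IL-18 null banded, 456.6 in IL-18 null sham, 712.9 in wild-type banded and 453.0 in wild-type sham. Its 4 measured probe sets differed with banding in wild type by 0.43 to 2.99.

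Slc20a1, the other sodium-phosphate cotransporter, had 854.0 in IL-18 null banded, 367.9 in IL-18 null sham, 395.7 in wild-type banded and 293.1 in wild-type sham. IL-18 null banded was alone high, by 1.21 against its sham array and by 1.11 against wild-type banded, and wild-type banding gave 0.43. Averaged with its probe set under the floor, the IL-18 null banding difference was 0.16. Slc39a1, the zinc importer ZIP1, had the same shape, with 790.1 in IL-18 null banded, 322.3 in IL-18 null sham, 358.4 in wild-type banded and 310.3 in wild-type sham. The IL-18 null banded array was higher than its sham by 1.29 and higher than wild-type banded by 1.14, while wild-type banding gave 0.21. The same arrays differed in macrophage markers, whose 10 genes summed to 10243 in IL-18 null banded, 3582 in IL-18 null sham, 6069 in wild-type banded and 3246 in wild-type sham, with 9, 8, 9 and 6 genes at or above the floor. The 10 fibroblast markers were summed above. With banding in IL-18 null, 6 of 9 fibroblast and 6 of 9 macrophage markers with a value were at least 2-fold higher (all genes: 6.98%). With banding in wild type, 7 of 10 fibroblast and 5 of 9 macrophage markers were at least 2-fold higher (all genes: 21.7%). The part of either in the Slc20a1 and Slc39a1 values was not tested.

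The metal carriers had the most measured genes of any role outside Slc25, 14 of 26. Slc39a14, the zinc and iron importer ZIP14, was higher on both banded arrays. It had 237.8 in IL-18 null banded, against 120.7 in IL-18 null sham, and 367.4 in wild-type banded, against 97.5 in wild-type sham, differences of 0.98 and 1.91. Its other probe set, above the floor in wild-type sham alone (70.9), differed by at least 0.15 the other way in wild type. Slc40a1, the iron exporter ferroportin, was lower on both banded arrays. It had 172.0 in IL-18 null banded, against 283.9 in IL-18 null sham, and 139.8 in wild-type banded, against 425.7 in wild-type sham, differences of -0.72 and -1.61. The transferrin receptor gene Tfrc, which takes iron into the cell, had 2312.1 in IL-18 null banded, 1429.2 in IL-18 null sham, 1137.9 in wild-type banded and 2269.8 in wild-type sham. In IL-18 null neither iron carrier passed 2-fold.

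Among the other zinc carriers, wild-type sham was the lowest array for some and the highest for others. Slc39a7 (ZIP7), which releases zinc from the endoplasmic reticulum, had 253.9 in IL-18 null banded, 253.5 in IL-18 null sham, 312.3 in wild-type banded and 63.5 in wild-type sham, just under the floor. Slc30a9 was likewise low in wild-type sham (204.4, against 525.2 to 691.7 on the other arrays). Slc30a4, a zinc exporter, was highest there instead, with 375.6 in IL-18 null banded, 304.3 in IL-18 null sham, 197.8 in wild-type banded and 470.5 in wild-type sham. Slc30a5 and Slc30a6, which supply zinc to the secretory pathway, differed with banding by 0.29 and 0.08 in IL-18 null, against -0.94 and -0.68 in wild type. The magnesium carrier relative Slc41a3 had 303.4 in IL-18 null banded, 537.0 in IL-18 null sham, 527.6 in wild-type banded and 160.7 in wild-type sham, a banding difference of -0.82 in IL-18 null, against 1.72 in wild type. Slc41a1, a magnesium transporter, had 524.2 to 665.9 and no difference past 2-fold. The copper carriers Slc31a1 and Slc31a2 also stayed within 2-fold.

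The families grouped as amino acid carriers had 8 genes with a value for banding in wild type. Of these, 2 were at least 2-fold higher and 1 lower (all genes: 21.7% and 12.8%). The 2 higher ones were Slc3a2 and Slc6a8, a heavy chain and a creatine transporter. In IL-18 null 0 of 7 genes in these families passed 2-fold (all genes: 9.51%). Slc3a2, the heavy chain (CD98) that brings several amino acid carriers to the surface, had 269.4 in IL-18 null banded, 151.8 in IL-18 null sham, 140.8 in wild-type banded and 39.2 in wild-type sham. Both banded arrays exceeded their shams, by 0.83 in IL-18 null and by at least 1.14 in wild type. Slc6a8, the creatine transporter that feeds the phosphocreatine store of muscle, had 1633.2 in IL-18 null banded, 1757.6 in IL-18 null sham, 2169.7 in wild-type banded and 900.7 in wild-type sham, a banding difference of -0.11 in IL-18 null, against 1.27 in wild type. Slc38a2, a sodium-coupled carrier of small neutral amino acids, had 3928.6 in IL-18 null banded, 2106.5 in IL-18 null sham, 2752.2 in wild-type banded and 3811.9 in wild-type sham. Banding gave 0.90 in IL-18 null, against -0.47 in wild type. Slc1a5, the glutamine carrier ASCT2, had 145.9 to 152.8 on all arrays. Slc38a10 had differences of at most 0.31 on its representing probe set, but its 3 measured probe sets ran from -0.31 to 3.18 with banding in wild type.

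The Slc35 family was grouped as carriers of nucleotide sugars, which load the Golgi and endoplasmic reticulum for glycosylation. Roles were given by Slc family and not gene by gene. With banding in wild type, 3 of the 7 Slc35 members were at least 2-fold lower and 1 higher (all genes: 12.8% and 21.7%). Slc35a1, which carries CMP-sialic acid, had 212.7 in IL-18 null banded, 184.8 in IL-18 null sham, 139.1 in wild-type banded and 434.6 in wild-type sham. Slc35a2, which carries UDP-galactose, had 108.5 in IL-18 null banded, 87.6 in IL-18 null sham, 54.9 in wild-type banded and 178.6 in wild-type sham. With banding in wild type they were lower by 1.64 (Slc35a1) and by at least 1.48 (Slc35a2), and Slc35a5 by 1.11. All 3 calls depended on the probe set. Averaged with their probe sets under the floor, Slc35a1 gave -0.01, and Slc35a2 and Slc35a5 had no value. Slc35a5 also had none without shared probe sets. Slc35b1, a carrier of the endoplasmic reticulum, was higher by 2.17, with 138.2 in wild-type sham and 588.2 to 666.0 on the other arrays. Slc35e1 (0.27), Slc35f5 (0.18) and Slc35f6 (-0.04) stayed within 2-fold. In IL-18 null 0 of the 7 passed 2-fold with banding (all genes: 9.51%). Among lipid and organic ion carriers, Slc44a2, a choline-like transporter, had 798.6 in IL-18 null banded, 626.4 in IL-18 null sham, 337.5 in wild-type banded and 1123.9 in wild-type sham. Its other measured probe set differed by 0.79 with banding in wild type, against -1.74, so its direction depended on the probe set. Slc47a1, an organic cation exporter, was level at 1318.8 to 1470.1.

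**Figure D2:**
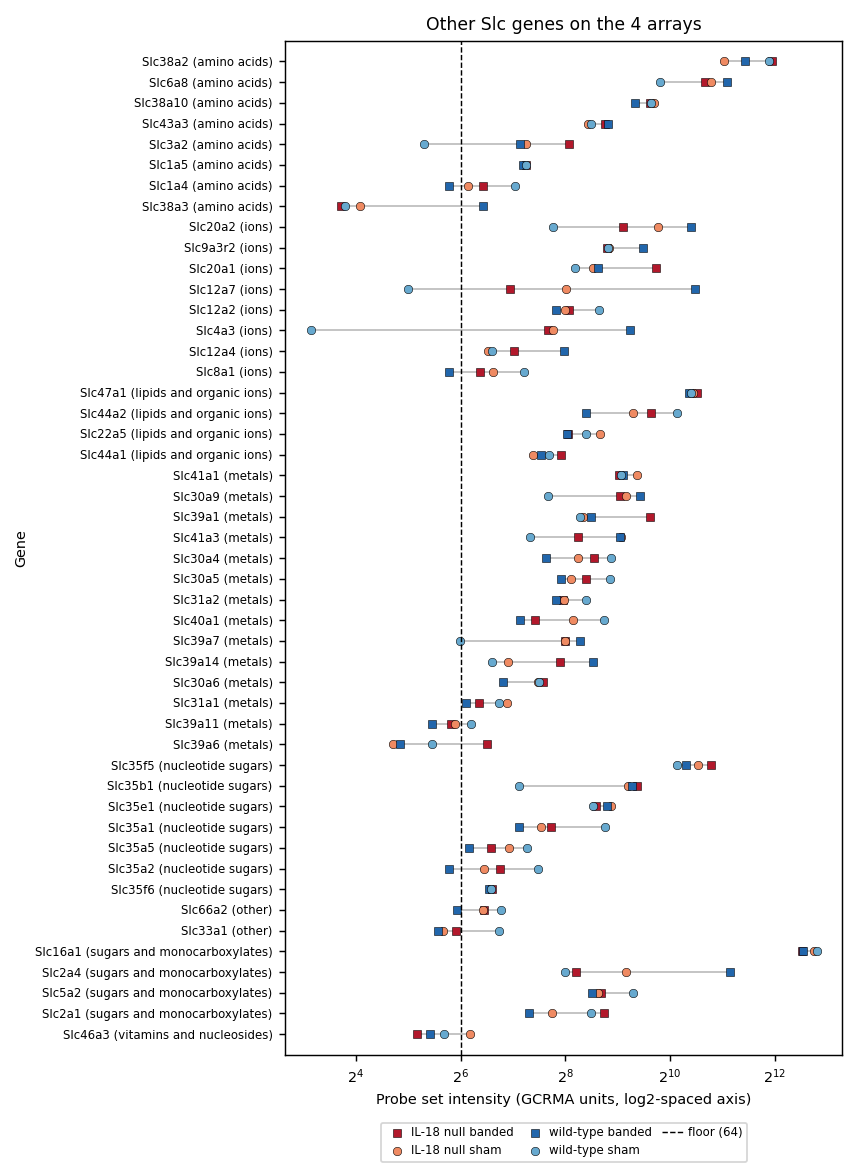
Probe set intensity (log2-spaced axis) of the 48 measured Slc genes outside Slc25, 1 row per gene grouped by role, with 1 point per array and the floor of 64 as a dashed line. Slc2a4, Slc12a7, Slc4a3 and Slc20a2 have wild-type banded at the right end and wild-type sham at the left, and Slc20a1 and Slc39a1 have IL-18 null banded alone at the right.

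Outside Slc25, 12 of 46 members with a value were higher by 2-fold or more and 9 lower in banded than in sham wild type (all genes: 21.7% and 12.8%), with a median of -0.11. The 12 higher ones were Slc12a7, Slc4a3, Slc2a4, Slc20a2, Slc39a7, Slc35b1, Slc39a14, Slc30a9, Slc41a3, Slc12a4, Slc6a8 and Slc3a2. The 9 lower ones were Slc44a2, Slc35a1, Slc40a1, Slc35a2, Slc30a4, Slc8a1, Slc2a1, Slc35a5 and Slc1a4. After quantile normalization the split was 10 higher and 17 lower (all genes: 852 and 1272, against 1096 and 647 without it), and after cyclic loess 12 and 6. Slc12a4, Slc3a2 and Slc25a51 were no longer past 2-fold after quantile normalization, nor Slc1a4, Slc2a1 and Slc35a5 after cyclic loess. The median of all genes was -0.42 under quantile normalization and 0.10 under cyclic loess, against -0.08 without them. In IL-18 null, 2 of 45 members were higher and 1 lower (all genes: 6.98% and 2.53%), with a median of 0.02. All Slc genes together thus had 4 of 64 members past 2-fold either way with banding in IL-18 null, against 9.51% of all genes, and 24 of 64 in wild type, against 34.6%. Both shares were near those of all genes.

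**Figure D3:**
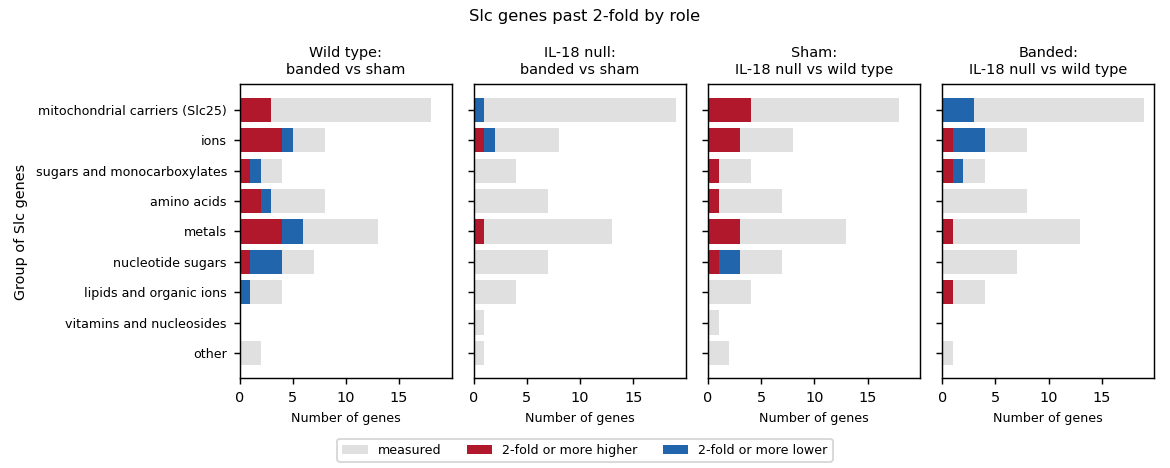
Number of Slc genes by role in each of the 4 comparisons, with bars for the genes measured (grey), those at least 2-fold higher (red) and those at least 2-fold lower (blue) in the group named first. Between the wild-type arrays 24 of 64 are called (all genes: 34.6%), and between the IL-18 null arrays 4 of 64 (all genes: 9.51%).

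Banding took 0 members past 2-fold in the same direction in the 2 genotypes, among 18 Slc25 and 43 other members with a value in each. Of 4709 genes, 79 were higher and 13 lower in both, 1.68% and 0.276%. Pearson's r between the genotypes' banding differences was -0.46 over the 18 Slc25 genes, -0.27 over the 43 others and -0.09 over all 4709 genes. Each is across genes that share the same 4 arrays, and is given as a description. For the 16 Slc25 and 35 other members at or above the floor on all arrays, the banding difference in IL-18 null minus that in wild type was at least 1 in 2 and 7 members and at most -1 in 4 and 6 (all genes: 22.8% and 17.0%). The 5 lowest were Slc25a13 (-4.82), Slc2a4 (-4.10), Slc20a2 (-3.31), Slc41a3 (-2.54) and Slc35b1 (-1.99). The 5 highest were Slc2a1 (2.17), Slc44a2 (2.09), Slc35a1 (1.85), Slc30a4 (1.55) and Slc38a2 (1.37). All 10 take part of their value from the wild-type sham array.

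**Figure D4:**
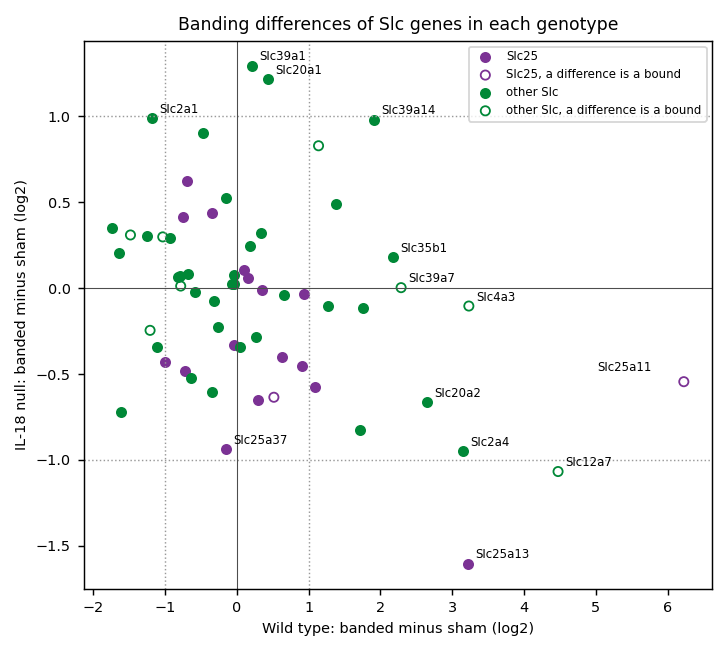
Banding difference (banded minus sham, log2) in IL-18 null against that in wild type for the 61 Slc genes with both values, with Slc25 genes in purple, others in green, open symbols where a difference is a bound and dotted lines at 2-fold. The wild-type axis runs to 6.22 (Slc25a11) and the IL-18 null axis only to 1.29 (Slc39a1), and no gene lies past 2-fold in the upper right or lower left corner.

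Without banding, IL-18 null and wild-type hearts were compared through the same wild-type sham array, so these values are not independent of those above. Of all Slc genes 15 of 64 were past 2-fold either way, against 22.6% of all genes. Among Slc25 genes the IL-18 null sham array was higher by 2-fold or more than wild-type sham for 4 of 18 and lower for 0 (all genes: 16.3% and 6.29%). They were Slc25a11 (at least 5.74), Slc25a13 (2.39), Slc25a51 (1.38) and Slc25a46 (1.28). The other measured probe set gave 0.31 for Slc25a51 and -0.20 for Slc25a46, so these 2 calls depended on the probe set. Of the others 9 of 46 were higher, led by Slc35b1 (2.09), Slc20a2, Slc41a3 (1.74), Slc30a9 (1.48) and Slc2a4 (1.18), with Slc12a7, Slc39a7, Slc4a3 and Slc3a2 higher by at least 2.01, 1.99, 1.77 and 1.25. Slc35a1 (-1.23) and Slc35a2 (-1.03) were the 2 lower ones. After quantile normalization 8 were higher and 5 lower, and Slc2a4 was no longer past 2-fold. The medians were 0.22 for Slc25 and -0.01 for the others, where that of all genes was -0.07. Under quantile normalization they were -0.03 for Slc25 and -0.29 for all genes.

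Between the banded arrays 11 of 64 Slc genes were past 2-fold either way, against 13.4% of all genes. The IL-18 null array was higher by 2-fold or more for 0 of 19 Slc25 genes and lower for 3 (all genes: 5.70% and 7.74%), namely Slc25a13 (-2.43), Slc25a23 (-1.07) and Slc25a11 (-1.03). Slc25a23 and Slc25a11 were no longer past 2-fold after quantile normalization. Of the others 4 of 45 were higher and 4 lower, or 2 and 5 after cyclic loess. The higher ones were Slc2a1, Slc44a2, Slc39a1 and Slc20a1, at 1.44, 1.24, 1.14 and 1.11. Slc39a1 and Slc20a1 were no longer past 2-fold after cyclic loess, nor Slc44a2 without shared probe sets. The other measured probe set gave 0.88 for Slc2a1 and 0.16 for Slc44a2. The lower ones were Slc12a7 (-3.53), Slc2a4 (-2.93), Slc4a3 (-1.56) and Slc20a2 (-1.31).

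Across all 4 arrays, a wild-type array stood at both ends for 5 of the 16 Slc25 genes and 15 of the 35 other genes at or above the floor throughout. Over all 3991 such genes the share was 44.0%. Wild-type banded was highest and wild-type sham lowest for 3 and 5 of them (all genes: 15.3%), and the reverse held for 2 and 10 (all genes: 28.7%). The highest and lowest arrays lay less than 1 apart for 12 of the 16 Slc25 genes and 19 of the 35 others (all genes: 59.7%). Slc35f6 (0.04 apart), Slc1a5 (0.07), Slc25a5 (0.15), Slc47a1 (0.16) and Slc25a15 (0.21) were the most level.

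Several measured probe sets existed for 14 members in the wild-type banding comparison. In 4 of these, Slc25a20, Slc25a39, Slc38a10 and Slc9a3r2, another probe set was past 2-fold while the representing one was not. All 4 extra calls in wild type were higher in banded. In IL-18 null banding such extra calls were found in 0 of 10, between sham arrays in 3 of 11 and between banded arrays in 3 of 13. Of the members called in wild-type banding, 1 Slc25 and 4 others had another measured probe set. It was past 2-fold the same way for 0 and 1 of these, and within 2-fold for 1 and 3.

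The partners of the carriers gave further values, to be read against 21.7% of all genes higher and 12.8% lower with banding in wild type, and 9.51% past 2-fold either way in IL-18 null. Of 10 measured genes that import or insert mitochondrial carriers, banding in wild type gave 3 at least 2-fold higher and 0 lower, Timm13 (at least 3.33), Timm10b (2.37) and Tomm22 (1.26). In IL-18 null 0 of 9 passed 2-fold. Tomm20, a receptor of the outer membrane, differed by 0.11 in IL-18 null, against -0.16 in wild type, and Timm22, the insertase for carriers, by 0.30, against 0.63. Of other mitochondrial transport proteins, the outer membrane channels Vdac1, Vdac2 and Vdac3 and the pyruvate carrier subunit Mpc1 stayed within 0.44 of 0 with banding in both genotypes. In the same list of 8 measured in wild type, 2 were higher, Mtch1 (at least 3.97) and Letm1 (1.54), and 1 lower, the uncoupling protein gene Ucp1 (by at least 1.13), while in IL-18 null 0 of 7 passed 2-fold. Of 6 measured genes of GLUT4 vesicle traffic and glucose uptake, 3 were higher with banding in wild type and 0 lower. They were Txnip, an inhibitor of glucose uptake (3.50), Akt2, the kinase of the insulin signal (at least 3.41), and the docking protein gene Stx4a (at least 2.57), and in IL-18 null 0 passed 2-fold.

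Subunits and regulators of the sodium and proton pumps, whose gradients many carriers use, were read against the same shares of all genes. Of 7 measured, 4 were higher and 1 lower with banding in wild type, Fxyd1 (3.74), Atp6v0d1 (at least 3.36), Atp6v1b2 (2.08) and Fxyd5 (1.32) against Atp6v1a (at least 1.13 lower). Fxyd5, like Fxyd1 a regulator of the sodium pump and not a pump itself, was also the 1 past 2-fold in IL-18 null, at 1.71. The sodium pump subunit genes Atp1b1 and Atp1b3 differed by 0.05 and 0.09 in IL-18 null, against 0.26 each in wild type. Of other uptake proteins, the fatty acid receptor gene Cd36 differed by -0.44 in IL-18 null, against 0.18 in wild type, and the water channel gene Aqp1 by -0.71, against 3.94. Abcc9, the sulfonylurea receptor SUR2, differed by -2.73, against 1.20. Between sham arrays the cholesterol exporter gene Abca1 differed by -1.01, lower in IL-18 null.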

How the data were processed

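The deposited values are linear probe set intensity values, which the authors computed with GCRMA per the submitters' processing notes; its version, settings and any later scaling, and the scanner files, are not given in the sources used here. The table held 22690 probe sets and values from 1.5 to 43811.1. Gene names came from the platform annotation; all 262 Slc genes matched RefSeq (GRCm38.p6) by gene ID with 0 symbols changed, and 3 Slc probe sets with several genes were left out. Intensities were floored at 64, log2 transformed and subtracted. The 2-fold count was run on simulated data with planted changes. That run checks the arithmetic of the count and says nothing of the error between these arrays. Arrays carry no depth, and their number limits precision. No test was made: each group is 1 pooled array.

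Members and lists were chosen with earlier results of these data known. Named genes were up to 6 measured differences and 3 bounds per direction, comparison and set (Slc25 or other), the 5 largest response differences per direction, the 3 members of highest mean intensity per set, those nearest the floor, partner genes past 2-fold (up to 6 per list) and a fixed list. Other members were named by role after their values were seen. Alternatives were a floor 2-fold lower (32) and 2-fold higher, no floor, a mean of at least 64, quantile normalization, cyclic loess (limma 3.58.1), the mean of all probe sets and leaving out shared probe sets.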

Additional observations from a re-analysis of the deposited data

Results flagged for a closer look

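Slc25a13 and Slc12a7 were past 2-fold with banding in opposite directions between genotypes. Slc25a13, the aspartate-glutamate carrier, differed by -1.60 in IL-18 null, against 3.22 in wild type. Slc12a7, a potassium-chloride cotransporter, differed by -1.07 in IL-18 null, against 4.47, a lower bound, in wild type. With 1 array per group this difference between genotypes was not tested. Over all genes, 63 of 4709 (1.34%) showed the same opposition. The wild-type arrays were those at the ends of the 3′ to middle measure of Gapdh (-0.16 in banded, 4.61 in sham), and its part in both values was not tested.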

How the results depend on the processing

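The 16 counts of members past 2-fold (4 comparisons, Slc25 or other Slc, each direction) were recomputed under 8 alternatives, and 96 of these counts stayed within 1.5 times those reported; the cause of the others was not tested except where stated. A mean of at least 64 and leaving out shared probe sets moved 0 counts past that limit. With a floor of 32, IL-18 null banding had 2 Slc25 and 2 other members lower (reported: 1 and 1). With the higher floor, 5 other members were lower in wild-type banding (9) and 1 in the sham comparison (2). With no floor, which adds the dim genes, wild-type banding had 2 Slc25 (0) and 25 other members (9) lower, IL-18 null banding 3 Slc25 (1) and 2 others (1) lower and 6 others higher (2), the sham comparison 9 others lower (2), and the banded comparison 5 Slc25 (3) and 9 others (4) lower and 8 others higher (4). Quantile normalization gave 2 Slc25 (0) and 17 others (9) lower in wild-type banding, 2 (1) and 2 (1) in IL-18 null banding, 1 (0) and 5 (2) in the sham comparison, and 1 Slc25 lower (3) in the banded one. Cyclic loess gave 5 Slc25 higher in wild-type banding (3), 2 Slc25 (1) and 2 others (1) lower in IL-18 null banding, 1 other lower in the sham comparison (2) and 2 others higher in the banded one (4). The mean of all probe sets, which takes in the others of a gene whether above or under the floor, gave 1 other lower in wild-type banding (9), 1 higher (2) and 0 lower (1) in IL-18 null banding, 2 Slc25 (4) and 5 others (9) higher and 0 others lower (2) in the sham comparison, and 1 other higher in the banded one (4). Of single calls in wild-type banding, Slc39a14 changed sign with the mean of all probe sets and Slc44a2 without shared probe sets (0.79). No paired analysis was possible because each group has 1 array. Signal below the floor gives bounds only.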
